A study of Drosophila melanogaster with 5 samples.

Results

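The genes described here are 6 core genes of Dpp signalling in the *Drosophila* wing disc, namely *dpp* (FBgn0000490), *tkv* (FBgn0003716), *Mad* (FBgn0011648), *shn* (FBgn0003396), *Dad* (FBgn0020493) and *brk* (FBgn0024250). They were followed through the H3K18ac peaks that the deposited annotation assigns to these gene identifiers, which were 22 of the 2626 peaks listed as different between etomoxir and control. Of the 6 genes, 5 had at least 1 listed peak and *Mad* had none. H3K18ac, acetylation of lysine 18 on histone H3, was mapped by Cut&Run, in which an antibody guides a nuclease to the mark and the released DNA is sequenced. All 5 libraries came from wing discs of wandering [w1118] larvae, male and female together. The etomoxir group held 2 libraries from explants cultured for 2 h with 500 µM etomoxir, an inhibitor of the carnitine palmitoyltransferase that feeds fatty acids into mitochondrial β-oxidation. The control group held 3 libraries, namely 2 from explants kept for 2 h in culture without etomoxir and 1 from discs that were dissected and never cultured, so the absence of culture and of drug go together in that library. A wing disc contains epithelium, peripodial cells, attached myoblasts and tracheal cells, and loss of the mark in some of the cells cannot be told apart from a lower level in all of them.

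Dpp is a BMP ligand of the fly and is made in a stripe of cells along the anterior-posterior boundary of the wing disc, from which it spreads as a morphogen. It binds type I receptors such as Thickveins (Tkv), which phosphorylate the Smad protein Mad. Phosphorylated Mad enters the nucleus with Medea, and on DNA sites called silencer elements the complex recruits the zinc finger protein Schnurri (Shn) and represses *brk*. Brinker (Brk) is itself a repressor of Dpp target genes, so Dpp signalling acts on many of its targets by removing their repressor. *Dad*, an inhibitory Smad, is a target gene of the pathway and limits the signal. H3K18ac is found at active promoters and enhancers.

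The table gives for each listed peak the authors' mean normalized read count of the control group and of the etomoxir group, on the log2 scale. Differences below are the etomoxir value minus the control value in log2 units, and reads are the same means on the linear scale. Every listed peak had an FDR under 0.05 in the authors' comparison, so a peak could be listed only if it differed. No value per library was used here, and no spread between replicates or new test can therefore be given for any difference. One of the cultured controls had many more unique reads than the other 4 libraries, and the part of that library in the values was not tested.

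All 22 peaks of the Dpp pathway genes had less H3K18ac after etomoxir and 0 had more. Over all listed peaks, 83.5% had less (2194 of 2626). The differences ran from -2.90 to -0.81 with a median of -1.51 (95% binomial interval, taken over peaks, -1.83 to -1.23), beside medians of -1.08 over all listed peaks and -1.19 over all lower peaks. Of the 22, 19 were lower by at least 1 on the log2 scale, against 57.5% of all listed peaks, and 17 fell by more than the median lower peak. The peaks were 311 to 1380 bases wide with a median of 720, beside 894 for all lower peaks, and 16 of 22 were narrower than that. In the control group they carried 82.2 to 197 reads per kb with a median of 131, beside 107 for all lower peaks. After etomoxir they carried 15.5 to 95.2 reads per kb with a median of 45.4, beside 45.9 for all lower peaks. In control discs 18 of the 22 lay above the median lower peak, and *brk* and peaks 1, 2 and 4 of *dpp* lay below it. Peaks of 1 gene share their locus, and the interval covers only the choice of peaks.

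**Figure D1:**
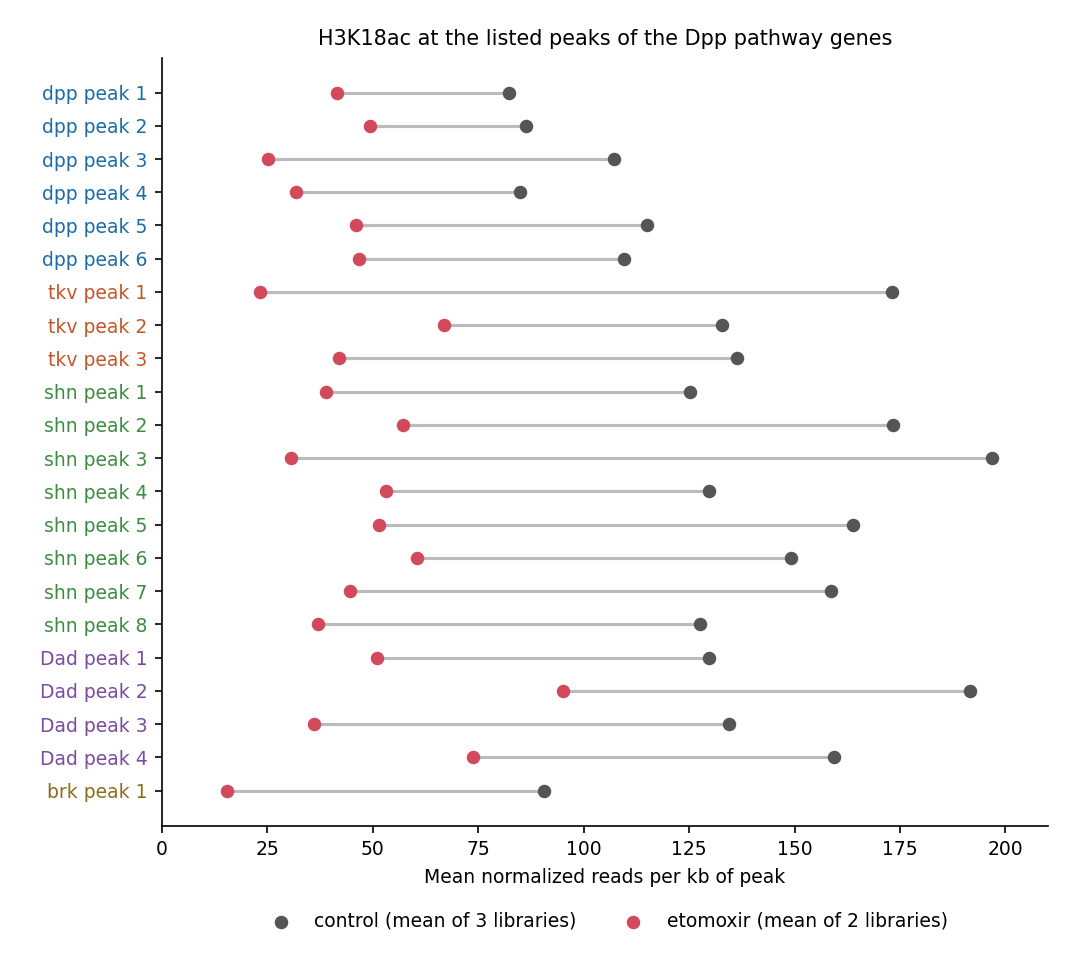
Mean normalized reads per kb of peak (x axis) at the 22 listed peaks of *dpp*, *tkv*, *shn*, *Dad* and *brk*, numbered along each gene, with the control mean of 3 libraries in grey and the etomoxir mean of 2 libraries in red. The etomoxir point lies to the left at every peak, the control points run from 82.2 to 197, and no error bar is drawn because only group means were used.

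**Figure D2:**
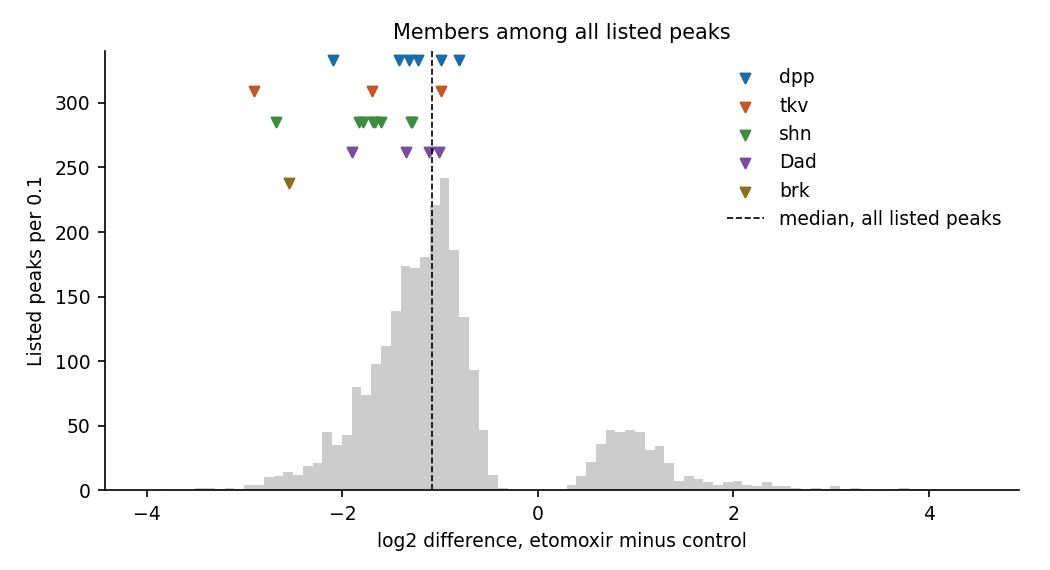
Histogram of the log2 difference, etomoxir minus control, over all 2626 listed peaks in steps of 0.1, with a triangle for each peak of the 5 genes and a dashed line at the median of all listed peaks (-1.08). The gap around 0 reflects that only peaks that differed are listed, and the peaks of the 5 genes span -2.90 to -0.81.

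With 5 of 6 genes, 83.3% of the set had a lower peak (95% Wilson interval 43.6 to 97.0%), whereas 7.89% of the 13986 protein-coding genes of the annotation did and 2.01% had a higher one. The 6 genes were chosen with earlier results of these data known, so the interval is not a test against the share of all genes. They are also longer than most. Their bodies measure 3.19 to 58.3 kb, beside a median of 2.16 kb for all protein-coding genes and 7.45 kb for those with a lower peak, and the part of gene length in the count was not tested. Among the 1469 genes with at least 1 lower peak, 0.272% had as many as the 8 of *shn*, 1.09% as many as the 6 of *dpp*, 4.70% as many as the 4 of *Dad* and 11.2% as many as the 3 of *tkv*.

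*dpp*, the ligand gene, lies on chromosome arm 2L from 2428372 to 2459823 of the dm6 genome on the plus strand, and its 4 transcripts start at 4 sites. Of its 6 peaks, 4 covered a start, so that every annotated start of *dpp* carried a lower peak. By contrast, 0 of the other 14 starts of the 6 genes were covered by a listed peak. This contrast rests on exact overlap, since a start of *Dad* lay 28 bases and a start of *shn* 112 bases from a peak. *Mad*, without a listed peak, has 2 of the 14 starts. Of all lower peaks, 24.7% covered the start they were assigned to. Within *dpp*, the largest difference was at peak 3 (chr2L:2448304-2449074), which lies inside the gene 1119 bases before the second start. It had 82.7 reads in control discs and 19.3 after etomoxir, a difference of -2.10. Peak 4 (chr2L:2449480-2450213) covers that second start and had 62.2 and 23.3 reads, a difference of -1.42. These neighbouring peaks sit on both sides of a gap of 405 bases. Peak 5 (chr2L:2450917-2451516) covers the third start and had 69.1 reads in control discs and 27.7 after etomoxir (-1.32). Peak 6 (chr2L:2454726-2455274) covers the most downstream start, holds 204 coding bases, and had 60.1 and 25.6 reads (-1.23). The remaining 2 peaks were the least changed of the gene. Peak 2 (chr2L:2432929-2433733), in the first intron, had 69.6 and 39.7 reads (-0.81), and peak 1 (chr2L:2427428-2428372) had 77.7 and 39.1 (-0.99). Peak 1 touches the first start of *dpp* by its last base only, and its centre lies 19 bases from the start of lncRNA:CR44912, a non-coding gene, so its assignment is uncertain. A stretch of 300 bases of peak 3 is printed because this peak had the largest difference of the ligand gene. The stretch runs over chr2L:2448488-2448787 on the plus strand, and the capitals mark its Mad core, GCCGNC.
dpp peak 3: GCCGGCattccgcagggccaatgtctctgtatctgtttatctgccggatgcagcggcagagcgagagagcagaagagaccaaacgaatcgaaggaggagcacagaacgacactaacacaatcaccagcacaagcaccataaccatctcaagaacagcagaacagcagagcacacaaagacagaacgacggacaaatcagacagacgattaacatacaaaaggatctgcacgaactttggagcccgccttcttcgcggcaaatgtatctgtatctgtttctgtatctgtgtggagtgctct

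Imaginal disc enhancers of *dpp* lie 3′ of the gene, in a stretch known as the disc region. Within 30 kb beyond the 3′ end, 5 peaks were listed, all of them lower, and all were assigned by the nearest start to other genes. This window was chosen after the values had been seen. The peak nearest to *dpp* (chr2L:2466427-2467617), 6.60 kb beyond the gene and assigned to tRNA:Tyr-GTA-1-3, had 164 reads in control discs and 38.6 after etomoxir, a difference of -2.09. A pair of peaks assigned to lncRNA:CR45286, 10.6 and 21.5 kb beyond the gene, differed by -1.84 and -1.60. A pair assigned to *Slh*, 26.7 and 28.1 kb beyond it, differed by -2.02 and -1.78. The median of the 5 was -1.84, beside -1.28 for the 6 peaks assigned to *dpp* itself. On the 5′ side, a peak 12.0 kb before the gene, assigned to *CG18641*, was lower by less, with a difference of -0.90. The assignment to a gene is by distance only, and no value here links these peaks to *dpp*.

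**Figure D3:**
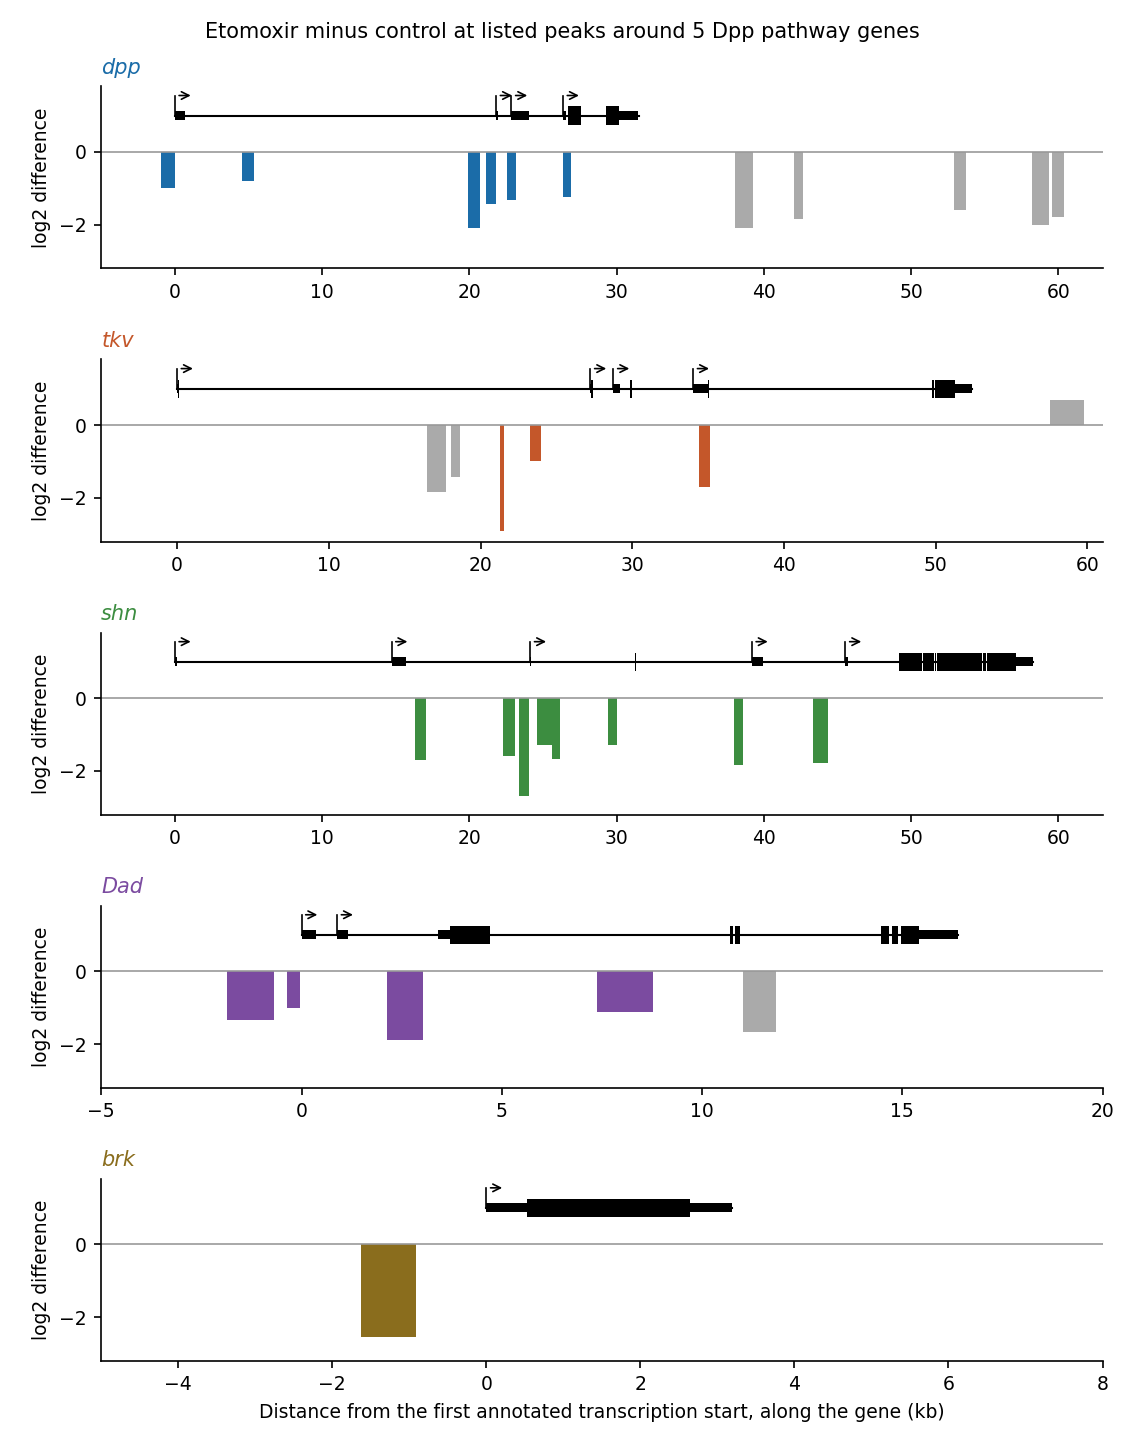
Maps of *dpp*, *tkv*, *shn*, *Dad* and *brk*, with distance from the first annotated start in kb on the x axis and the log2 difference, etomoxir minus control, as bars as wide as the peaks. The gene model is drawn above (thick, coding; thin, non-coding exon; arrows, starts), coloured bars are peaks assigned to the gene and grey bars peaks assigned to another gene. All coloured bars point down, bars lie on all 4 starts of *dpp*, and the single bar above 0 in these windows is a peak 5.15 kb beyond *tkv*.

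*tkv*, the type I receptor gene, lies at 5219000 to 5271384 of arm 2L on the minus strand, with 4 starts. All of its 3 peaks were inside the gene and none covered a start. Peak 1 (chr2L:5249813-5250123), in the first intron, had 53.8 reads in control discs and 7.21 after etomoxir. The difference of -2.90 is the largest among the 22 peaks, and 0.593% of all lower peaks fell by more. Its 7.21 reads after etomoxir were the fewest of the 22, so the size and rank of this difference rest on a low count. On the log2 scale the control and etomoxir values, 5.75 and 2.85, were both below 6, the limit of the filter among the alternatives. Peak 1 is also the narrowest of the 22, with 311 bases, and per kb its control value of 173 reads was above that of 95.8% of listed peaks. Peak 2 (chr2L:5247428-5248104), also in the first intron, had 89.9 and 45.3 reads, a difference of -0.99. These intronic peaks, 1708 bases apart, thus held the largest and the smallest differences of the gene. Peak 3 (chr2L:5236250-5236951), which begins 411 bases downstream of the most internal start and holds 34 coding bases, had 95.7 and 29.4 reads (-1.70). The first intron also contained 2 lower peaks that the table assigns to lncRNA:CR44744, with differences of -1.83 (chr2L:5253679-5254882) and -1.42 (chr2L:5252743-5253353), so that 5 lower peaks lay inside *tkv*. The sequence of peak 1 is printed because it carries the largest difference of the pathway. It runs over chr2L:5249818-5250117 and is given on the minus strand, the strand of *tkv*, with the single Brinker core GGCGTC in capitals.
tkv peak 1: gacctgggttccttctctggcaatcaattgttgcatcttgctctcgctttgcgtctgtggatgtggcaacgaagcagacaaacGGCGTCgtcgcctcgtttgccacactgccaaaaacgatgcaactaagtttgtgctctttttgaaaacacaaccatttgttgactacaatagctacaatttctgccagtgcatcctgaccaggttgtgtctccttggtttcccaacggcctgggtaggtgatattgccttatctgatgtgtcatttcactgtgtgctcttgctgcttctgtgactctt

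*Mad*, the Smad protein that Tkv phosphorylates, lies at 3146056 to 3159643 of arm 2L and was not listed. The nearest listed peak was 37.5 kb away, was assigned to *toc* and differed by -0.77. A gene without a row either had no peak or had one that did not pass the authors' threshold, and these cases cannot be told apart in the table.

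*shn*, the zinc finger cofactor of Mad, lies at 11159086 to 11217394 of arm 2R on the plus strand, with 5 starts. Its 8 peaks were the most of the 6 genes, all were inside the gene, and all 8 lay wholly in introns. The reads ranged over the 8 peaks from 80.4 to 140 in control discs and from 20.1 to 57.3 after etomoxir, and each peak is listed only because it differed. The strongest difference was at peak 3 (chr2R:11182458-11183112), which ends 112 bases before the third start and had 129 reads in control discs and 20.1 after etomoxir. Its difference of -2.68 was exceeded by 1.28% of all lower peaks, and its 197 control reads per kb were the highest of the 22. Peaks 2, 4 and 5 lay around the same start and differed by -1.60, -1.29 and -1.67. Peaks 4 and 5 are separated by 3 bases and may be 1 region. Peak 7 (chr2R:11197027-11197646), which ends 630 bases before a more downstream start, differed by -1.83, and peak 8 (chr2R:11202421-11203466), 1163 bases before the last start, by -1.79. Peak 1 (chr2R:11175417-11176134) differed by -1.69 and peak 6 (chr2R:11188485-11189117) by -1.30. The median of the 8 was -1.68, and apart from peak 3 they spanned -1.83 to -1.29.

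*Dad*, the inhibitory Smad gene, lies at 17054007 to 17070408 of arm 3R on the plus strand, with 2 starts. Of its 4 peaks, 2 lay upstream and 2 in introns. Peak 1 (chr3R:17052151-17053315), which ends 692 bases before the first start, had 151 reads in control discs and 59.3 after etomoxir, a difference of -1.35. Peak 2 (chr3R:17053639-17053979), which ends 28 bases before the start, had 65.3 and 32.4 reads (-1.01). After etomoxir this peak still had 95.2 reads per kb, the highest value of the 22 in that group and above the control value of *brk* and of 3 *dpp* peaks. Peak 3 (chr3R:17056134-17057040), 1237 bases downstream of the second start, had 122 and 32.7 reads and the largest difference of the gene, -1.90. Peak 4 (chr3R:17061398-17062777), the widest of the 22 with 1380 bases, had 220 and 102 reads (-1.11). A further lower peak in the fifth intron (chr3R:17065020-17065846), assigned to *Ns1*, had 119 and 37.3 reads (-1.67). The intronic peak 3 and this peak were thus lower by more than the peaks next to the start, in the values of these group means.

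*brk*, the repressor that Dpp signalling turns off, is a gene of 3.19 kb with 1 transcript at 7307939 to 7311132 of chromosome X, on the plus strand. Its only peak (chrX:7306308-7307029) ends 910 bases before the start and had 65.3 reads in control discs and 11.2 after etomoxir. The difference of -2.55, which also rests on a low count after etomoxir, was exceeded by 1.96% of all lower peaks. Per kb, its 15.5 reads after etomoxir were the lowest of the 22, and its control value of 90.5 was below that of all *tkv*, *shn* and *Dad* peaks. The peak overlaps the annotated genes *CG1677* and lncRNA:CR44357 and covers the start of neither. A stretch of 300 bases of it (chrX:7306519-7306818, plus strand) is printed because it is the only listed peak of *brk*, with 1 Mad core, read on the minus strand, in capitals.
brk peak 1: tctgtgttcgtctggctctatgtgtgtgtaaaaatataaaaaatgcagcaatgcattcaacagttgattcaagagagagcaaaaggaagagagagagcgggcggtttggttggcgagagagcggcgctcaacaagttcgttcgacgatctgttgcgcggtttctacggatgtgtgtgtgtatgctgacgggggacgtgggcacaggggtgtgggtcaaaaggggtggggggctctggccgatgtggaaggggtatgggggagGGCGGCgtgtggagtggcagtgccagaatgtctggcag

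The silencer element, here GACGNC or GGCGNC followed by 5 bases of any kind and GTCTG, was searched on both strands around each gene. It always contains a Smad box, GTCT. In the 20 kb upstream of *brk* it had 9 matches, from 15995 to 2177 bases before the start, and it had 1 match 9520 bases downstream of the start. Of 13945 protein-coding genes, 5.51% had any match in the 20 kb upstream, 2 had as many as 9 (0.0143%) and 0 had more. *brk* itself is 1 of these 2. The element is the kind of site through which *brk* is repressed, so matches there were likely beforehand and the count is no independent support. None of the 10 matches around *brk* lay in the listed peak, and none of the 22 peaks of the pathway genes held one, beside 0.381% of all listed peaks. The nearest match, on chrX:7305762-7305777, was 531 bases from the peak of *brk*. It is printed with 7 bases on either side (chrX:7305755-7305784, plus strand), with the element, read on the minus strand, in capitals.
brk silencer element: atctttcCAGACAGTCCGTCGTCggctttt

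The activating element, the arrangement of Mad and Medea sites known from *Dad*, was added to the search after the peaks had been seen. It was taken as GGCGCCA, 4 bases of any kind, GNC, then any base but T, on both strands, and it always contains the Brinker core GGCGCC. It was matched in 1 of the 22 peaks, peak 3 of *Dad*, beside 0.762% of all listed peaks, and again in the *Dad* intron peak assigned to *Ns1*. Both matches inside *Dad* lay in lower peaks. The element is known from *Dad*, so matches there were likely beforehand. Every listed peak at *Dad* was lower, so the place of these matches is no independent support. Inside *shn* the activating element had 1 match, 1675 bases from the nearest listed peak, and the silencer element had 1, 3106 bases from one. Upstream of *tkv* the silencer element had 1 match, 4384 bases before the first start and 10942 bases from the nearest listed peak. Peak 3 of *Dad* also held 7 of the 45 Mad cores found in the 22 peaks, 3 of the 7 matches to GGCGCC and 2 of the 5 to GGCGTC. Both stretches are printed so that the elements can be compared. They run over chr3R:17056218-17056517 and chr3R:17065226-17065525 on the plus strand, with the element in capitals.
Dad peak 3: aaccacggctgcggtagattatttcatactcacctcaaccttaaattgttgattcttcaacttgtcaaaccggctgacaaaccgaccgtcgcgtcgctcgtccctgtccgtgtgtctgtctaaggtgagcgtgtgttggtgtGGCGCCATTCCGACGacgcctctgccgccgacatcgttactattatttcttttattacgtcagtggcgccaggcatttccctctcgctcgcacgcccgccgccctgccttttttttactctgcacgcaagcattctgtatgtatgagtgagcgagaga
Dad intron peak assigned to Ns1: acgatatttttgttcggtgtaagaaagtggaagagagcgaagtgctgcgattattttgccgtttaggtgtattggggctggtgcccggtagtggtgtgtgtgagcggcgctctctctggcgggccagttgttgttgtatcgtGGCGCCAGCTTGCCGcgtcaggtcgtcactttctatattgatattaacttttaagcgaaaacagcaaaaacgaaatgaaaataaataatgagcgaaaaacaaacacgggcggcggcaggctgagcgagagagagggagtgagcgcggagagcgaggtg

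Across the 22 peaks, the short cores were counted on both strands. The Mad core GCCGNC was matched in 16 peaks (72.7%), beside 70.7% of all listed and 73.3% of all lower peaks. In windows of 500 bases at the peak centres, a length chosen after the peaks had been seen, it was matched in 72.7%, beside 49.7% of all listed and 53.9% of all lower peaks. The core GGCGCC was matched in 5 peaks (22.7% beside 12.9%), GGCGTC in 3 (13.6% beside 23.3%) and the Smad box GTCT in 21 (95.5% beside 97.4%). The median GC content was 46.1%, beside 44.6% for all listed peaks. A match is a stretch of letters and not a measured binding site, and no difference between these shares was tested.

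By the deposited annotation, 17 of the 22 peaks (77.3%, Wilson interval 56.6 to 89.9%) were within 3 kb of a start and called promoter, beside 62.8% of all lower peaks, and the other 5 were intronic. This interval counts the peaks as separate, although 8 are from *shn* and 6 from *dpp* and peaks of 1 gene share their locus. The word promoter covers a wide stretch, since 4 of the 22 peaks covered a start of their gene and 9 had their centre within 1 kb of one. In 17 of the 22 no base lay in an exon of the gene.

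In the wider list of 33 BMP pathway genes, to which the 6 belong, 15 had a lower peak by assignment (45.5%). By the same count, 7.89% of all protein-coding genes had one. Of the 33, 0 had a higher peak, beside 2.01% of all protein-coding genes, and 18 were not listed. The 47 assigned peaks had a median difference of -1.42, between -2.90 and -0.71. The median body of the 33 genes was 14.8 kb. Without the 6 genes above, 10 of 27 had a lower peak (37.0%). Of the ligands only *dpp* was listed, of the 4 receptors only *tkv*, and of the 3 Smads only *Dad*. A gene not listed is not shown to be unchanged. Genes were matched by identifier, and 98.2% of the deposited identifiers were found in the annotation. A row under an identifier that was not found would be missed. Among the 10 extracellular regulators, 4 had lower peaks. The glypican *dally*, a cell surface proteoglycan that shapes the spread of Dpp, had 5 lower peaks between -2.71 and -1.40, and the related *dlp* had 4, of which the least changed differed by -1.12. The Chordin homologue *sog*, which binds BMP ligands outside the cell, had 1 peak with a difference of -1.32, and *tld*, the protease that cleaves Sog, had 1 with -0.83. *Snoo*, a Ski/Sno family protein, had 1 peak with -1.24. Of the 8 wing target genes, 5 had lower peaks. *bi*, which encodes the T-box factor Optomotor-blind, and *ush*, a FOG family protein, had 5 each, with differences of -1.79 to -1.26 and -1.84 to -0.99. The zinc finger gene *salm* had 1 peak with -1.97, *vg*, the selector of wing fate, 1 with -1.50, and *nab* 1 with -0.71. Both ends of the pathway, from the extracellular regulators to the target genes, thus contained lower peaks. A further 4 genes without a peak of their own, *wit*, *magu*, *cv-2* and *pnr*, were overlapped by lower peaks assigned to another gene, so that 19 of the 33 had a lower peak by either count, beside 9.93% of all protein-coding genes. The list was chosen with earlier results of these data known, and the part of gene length in these counts was not tested.

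**Figure D4:**
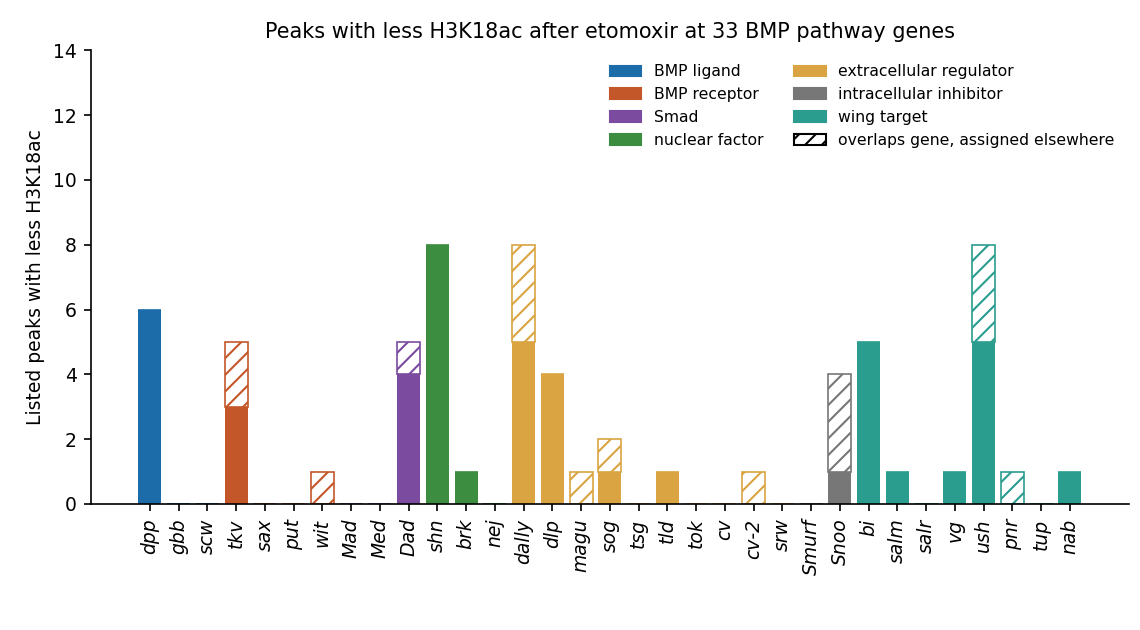
Number of listed peaks with less H3K18ac after etomoxir (y axis) at each of 33 BMP pathway genes, coloured by role, with solid bars for peaks assigned to the gene and hatched bars for peaks that overlap it but are assigned to another gene. Solid bars stand at 15 genes, and *shn* has the most assigned peaks, 8.

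The other signalling lists were counted in both ways. Of the 6 genes of the activin branch, 0 had a lower peak by either count, beside 9.93% of all protein-coding genes. Their median body was 6.2 kb, beside 14.8 kb in the BMP list. With 6 genes, a count of 0 is near that share, and no contrast with the BMP list was tested. Of 9 Hedgehog pathway genes, 4 had a lower peak by assignment and 4 by either count, and the 9 assigned peaks had a median of -1.63. *hh*, the ligand that induces *dpp* in the wing disc, had 3 between -2.57 and -1.97, and *ci*, the transcription factor of the pathway, had 2 with -1.50 and -0.84. *ptc*, the Hedgehog receptor, had 1 lower peak with -1.30, and 1 lower and 1 higher peak assigned elsewhere also overlapped it. *boi*, a coreceptor gene, had 3 lower peaks between -1.65 and -1.53 and was overlapped by 2 lower peaks assigned elsewhere. Of 10 Wingless pathway genes, *fz2* and *nkd* had lower peaks by assignment, and with *fz* and *arr*, overlapped by 5 and 1 lower peaks of other genes, 4 had one by either count. Of 5 wing disc marker genes, 4 had a lower peak by assignment and 5 by either count. Of 4 myoblast markers, *Mef2* and *ct* had lower peaks, with differences of -1.17 and -2.45, *twi* was overlapped by 5 lower peaks assigned to other genes, and *zfh1* had none. *ct* is also expressed at the wing margin. Of 3 fat body and 3 haemocyte markers, 0 had a lower peak by either count. Since 7.89% of protein-coding genes had a lower peak by assignment and a gene is listed only if a peak differed, these counts do not show which cells the discs held. The label of the tissue could not be checked from this table, and the part of myoblasts in the peaks of the Dpp pathway genes was not tested.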

How the data were processed

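Cut&Run for H3K18ac gave 5 wing disc libraries, of which 3 formed the control and 2 the etomoxir group. Per the labels and methods, the authors trimmed reads with Trim Galore 0.6.3, aligned them to dm6 with Bowtie2 2.4.2, removed duplicates with MarkDuplicates, called peaks with MACS2 2.1.1.20160309.6, tested the difference between groups with DiffBind 2.10.0 and assigned peaks to genes with ChIPseeker 1.18.0. Yeast spike-in DNA was added, and its use in scaling is not given in the sources used here. The deposited table holds log2 mean normalized reads over all libraries and per group. The overall value equals the mean weighted by libraries within 0.02 at 100% of peaks. The deposited fold change, p-value and FDR columns hold the authors' own comparison. They were not used, except to check that every FDR lies under 0.05. Each deposited peak also has its gene, its transcript and a signed distance to the start in bases.

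Depth per library was not analysed here, and Wilson and binomial intervals at the 95% level cover counting over peaks or genes only. Deposited starts count from 0 (needed by 100% of 507 downstream plus-strand peaks), and coordinates are printed counting from 1. Gene models came from Ensembl release 115, in which 98.2% of the gene identifiers were found, and sequence came from the RefSeq dm6 genome, in which 6 of 6 genes have the same ends. Motifs were matched on both strands. The 6 genes were given by identifier, and the members and gene lists were chosen with earlier results of these data known. All listed peaks of the 6 genes are described, other genes are named from the fixed lists, and neighbouring genes are named only as the assignment of a peak. Alternatives changed the assignment, the scale, the filter and the promoter definition. Motif searches and the interval of a median were checked on simulated data. The software was matplotlib 3.10.9, pandas 2.3.3, scipy 1.17.1 and numpy 2.4.6 under Python 3.11.15.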

Additional observations from a re-analysis of the deposited data

How the results depend on the processing

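Of 20 alternatives, 17 left the result within the set limits, 3 moved it and 0 turned the direction. The limits for the median and the shares were the intervals given above, taken over the same peaks or genes. All 22 peaks were lower, so alternatives that only left out some of these peaks could not turn the direction. Among the 17, the share of genes with a lower peak went from 83.3% to 45.5% in the wider list of 33 genes, which is over 1.5 times lower but inside the wide interval of a share of 6 genes. The 22 lower peaks became 36, with 2 higher, when all peaks within 30 kb of a gene body were added, a distance chosen after seeing the data. Under the other assignments and filters the count lay between 16, with peaks closer than 1 kb merged, and 26 within 10 kb, where 1 peak was higher. The median difference of -1.51 lay between -1.68 and -1.33. The promoter share of 77.3% became 18.2% when a peak had to overlap a start of its gene and 40.9% when its centre had to lie within 1 kb of one. No paired analysis was possible because the table holds group means and no value per library, and leaving out each replicate was not run for the same reason. Peaks that did not pass the authors' threshold were not analysed here, so the share of peaks that differed at each gene is unknown.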

Other observations

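Within 30 kb of the 6 genes, 16 listed peaks were assigned to other genes, of which 14 were lower and 2 higher. The higher ones were the promoter peak of *CG7742*, 5.15 kb beyond the 3′ end of *tkv*, which had 194 reads in control discs and 311 after etomoxir (0.68), and that of *CG13226*, 25.5 kb beyond *shn*, with 52.0 and 138 reads (1.41). On the other side of *tkv*, a pair of peaks of *vri*, which encodes a bZIP transcription factor of the circadian clock, were lower, the more changed one with a difference of -2.13. Beyond *brk*, a peak over the start of *Atg5*, an autophagy gene, differed by -0.96. This window was chosen after the values had been seen.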
